A study of Mus musculus with 6 samples.

Results

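The genes described here encode 10 heat shock proteins, the chaperones of the cytosol and the mitochondrion that cells make in larger amounts when proteins unfold. They were chosen by gene symbol from the 24421 symbols of the count table, and all 10 (Hspa1a, Hspa1b, Hspa8, Hsp90aa1, Hsp90ab1, Hspb1, Hspb8, Hsph1, Dnajb1 and Hspd1) were in the table and passed the filter on low counts. RNA was sequenced from cochlear explants of wild-type mice at postnatal day 2, with 3 control and 3 neomycin samples, each pooled from 6 to 8 cochleae. Neomycin is an aminoglycoside antibiotic that kills sensory hair cells (HCs). Per the protocol, explants freed of the stria vascularis anlage, modiolus and tectorial membrane rested for 12 h, met neomycin at 1 mM over 6 h, and were then kept for 5 days in medium that held EdU, a label of newly made DNA, at 10 μM. This protocol text is the same for all 6 samples, so the groups rest on the treatment given in the sample labels. No earlier time point was analysed here, and the comparison describes explants days after the exposure, not the hours in which it took place.

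Heat shock proteins bind unfolded stretches of other proteins and keep them from clumping until they are refolded or degraded. HSP70 proteins work in an ATP-driven cycle in which a J-domain protein delivers the client and a nucleotide exchange factor releases it, HSP90 proteins finish the folding of kinases and hormone receptors, small heat shock proteins hold clients without ATP, and the chaperonin HSP60 encloses them inside mitochondria. Some of these genes are always active, and others are switched on by heat shock factor 1, which binds inverted repeats of GAA known as heat shock elements. In the inner ear, a heat shock before aminoglycoside exposure is known to protect HCs in culture, and HSP70 is the chaperone most studied in that setting.

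Promoter sequence is shown because heat shock elements are what the inducible genes of the family are known to share. Of the 10 genes, 7 had a RefSeq promoter (build GRCm38.p6), and Hspa8, Hsp90aa1 and Hsp90ab1 had none. The 250 bases before the start of Hspa1a, on the minus strand at chr17:34972157-34972406, read as follows. Capitals mark a match of letters to a short form of the heat shock element, and binding was not tested.
Hspa1a: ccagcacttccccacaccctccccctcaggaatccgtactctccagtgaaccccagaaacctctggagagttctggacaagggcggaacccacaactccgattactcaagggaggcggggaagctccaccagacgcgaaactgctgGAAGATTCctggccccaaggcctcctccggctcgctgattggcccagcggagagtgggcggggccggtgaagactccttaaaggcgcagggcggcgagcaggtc
The same 250 bases of Hspa1b, its neighbour on chromosome 17, were identical at 247 positions. The 3 substitutions were C44T, T47C and T249G, with the Hspa1a base first and positions counted from 1 at the 5′ end of the sequence above. Short stretches around the matches of other members are set side by side below, again with the match in capitals and written along the strand of the gene.
Hspa1b, chr17:34959325-34959352: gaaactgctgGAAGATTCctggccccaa
Hspb1, first element, chr5:135887792-135887819: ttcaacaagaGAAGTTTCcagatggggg
Hspb1, second element, chr5:135887812-135887839: gatgggggcaGAACCTTCctggccccgc
Hsph1, chr5:149636352-149636379: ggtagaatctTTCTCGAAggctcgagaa
Hspd1, second start, chr1:55088053-55088082: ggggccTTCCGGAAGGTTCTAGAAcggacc
The elements searched were GAANNTTC and TTCNNGAA, each of which reads the same on both strands, and on both strands a 3-unit form, GAANNTTC followed directly by NNGAA, which contains both of the shorter ones. In the 250 bases before the start, either short element stood in 12.8% of 32851 RefSeq promoters and the 3-unit form in 0.466%. Hspa1a, Hspa1b, Hspb1, Hsph1 and the second annotated start of Hspd1 held a short element, and only the last of these held the 3-unit form, in 2 overlapping copies. That second start lies inside the annotated gene, downstream of the first. No match was found for Hspb8, for either start of Dnajb1 or for the first start of Hspd1, which says only that these letters are not in those windows.

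Total counts ran from 50471116 to 66068108 per library, and the 10 genes together took between 0.407% and 0.474% of them. Reads of several members are hard to assign. Of all 100-base windows in the longest coding transcript of Hspa1a, 56.5% also occurred in a transcript of another gene, mostly Hspa1b, and the value was 49.9% for Hspa1b, 63.4% for Hspa8, 47.5% for Hsp90aa1, 42.7% for Hspb1 and 26.9% for Hspd1. The partner sharing most was Gm15459 for Hspa8, Gm12346 for Hsp90aa1, and the pseudogenes Hsp25-ps1 and Hspd1-ps3 for Hspb1 and Hspd1. For Hsp90ab1, Hspb8, Hsph1 and Dnajb1 no window was shared. The handling of such reads is not given in the sources used here, so levels of the genes that share sequence are uncertain. Exons of Hspd1 overlap Hspe1 on the other strand, and those of Hspa1a overlap Gm20481. Markers of several cell types also differed between the groups. Of 15 HC markers, 14 were lower after neomycin, with a summed level of 802 to 938 CPM (a gene's count relative to the library total, scaled by TMM) in control and 259 to 321 CPM after neomycin. Of 10 endothelial markers 7 were lower, and the median log2 fold change of the 10 was -1.94. Their summed levels overlapped, but most of that sum was Emcn, which did not pass. Emcn had 252 ± 12.1 CPM in control and 273 ± 26.2 CPM after neomycin (mean ± SD, n = 3). Of 10 macrophage markers 5 were higher, with a summed level of 90.3 to 119 CPM in control and 128 to 158 CPM after neomycin. Of 11 neuronal markers 5 were lower and 1 higher. Of 15 supporting cell markers 4 were higher and 3 (Jag1, Fgfr3 and Prox1) lower. Their summed level was 3351 to 3762 CPM in control and 4149 to 4304 CPM after neomycin. Within that sum S100a1 alone went from 1561 ± 216 to 2144 ± 126 CPM (mean ± SD, n = 3). By the edgeR test behind these marker counts, 12.9% of all genes were higher and 16.1% lower. In bulk RNA, fewer cells of a type and less RNA per cell cannot be told apart, and the part of these shifts in the values of the heat shock genes was not tested.

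Levels of the 10 genes spanned a wide range. Per kb of exon in control, Hsp90ab1, the constitutive cytosolic HSP90, stood highest at 510 ± 18.1 CPM per kb (SD, n = 3), followed by Hspa8, the constitutive HSP70, at 432 ± 32.6 CPM per kb. Hsp90aa1, the inducible HSP90, followed at 148 ± 10.9 CPM per kb and Hspd1, which encodes HSP60, at 81.2 ± 7.48 CPM per kb. Lower came the small heat shock genes Hspb1 and Hspb8 at 36.4 ± 6.29 and 34.3 ± 7.71 CPM per kb, whose ranges over the control libraries overlapped. The J-domain gene Dnajb1 had 22.7 ± 2.69 CPM per kb, with a highest library of 25.6 against a lowest of 25.4 CPM per kb for Hspb8. Hsph1 had 14.3 ± 0.792 CPM per kb. Hspa1b and Hspa1a, the inducible HSP70 genes, were lowest at 6.88 ± 2.00 and 4.87 ± 1.64 CPM per kb, and their ranges overlapped. Among 15858 tested genes with a length, Hsp90ab1 lay at percentile 99.5 of the control level per kb and Hspa1a at percentile 51.2. The order was the same after neomycin, where Hsp90ab1 had 467 ± 8.80 and Hspa1a 4.24 ± 1.33 CPM per kb. Neighbours in this order overlapped in range for Hspb1 with Hspb8 and Hspa1b with Hspa1a in both groups and for Hspb8 with Dnajb1 in control, and for no other pair. The order rests on the length used, which is the union of all annotated exons. That is 4.301 kb for Hspa8, 2.999 kb for Hsp90ab1 and 7.266 kb for Hsph1. Their longest coding transcripts have 2394, 2520 and 3802 bases, and the order by transcript length was not computed.

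**Figure D1:**
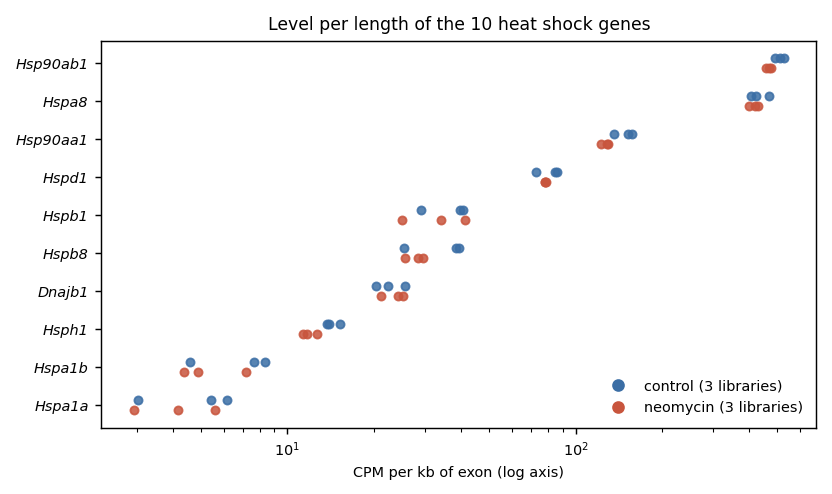
Level per length of the 10 genes in each library, as CPM per kb of exon on a log axis, with 3 control libraries in blue and 3 neomycin libraries in red. Hsp90ab1 and Hspa8 sit to the right and Hspa1a and Hspa1b to the left in both groups.

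The question of the comparison was whether these genes stood at another level in explants that had met neomycin. The changes were small. Only Hsph1 had an adjusted p below 0.05 (quasi-likelihood test of edgeR, Benjamini-Hochberg over 15988 genes). That is 1 lower and 0 higher of 10 members, where 29.0% of all genes tested passed, 16.1% lower and 12.9% higher. Without control replicate 3 or neomycin replicate 2 the count was 0, where 33.0% and 15.6% of all genes passed, and without control replicate 1 it was 4, where 20.2% did. No member also changed over 1.5-fold, where 8.84% of all genes did, 6.60% lower and 2.24% higher. That count was also 0 at an unadjusted p under 0.05 with the same fold change, and 0 with DESeq2 and with limma-voom. At an unadjusted p under 0.05 without a fold threshold there were 3 members, Hsph1, Hsp90aa1 and Hspb8, against 41.0% of all genes. The log2 fold changes ran from -0.32 to 0.05 with a median of -0.16, and 9 of 10 were below 0, against 50.5% of all genes and a median of 0.00. With single libraries left out, 7 to 10 members were below 0, with 7 without control replicate 3 or neomycin replicate 1, and the median ran from -0.27 without neomycin replicate 3 to -0.09 without neomycin replicate 1. With scaling by total counts in place of TMM all 10 were below 0, and the share of lower genes among all those passing moved from 55.5% to 70.35%. The control and neomycin values did not overlap for 3 members, Hsph1, Hsp90aa1 and Hsp90ab1, each lower after neomycin, where 43.5% of all genes did not overlap in either direction and 22.5% were lower.

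**Figure D2:**
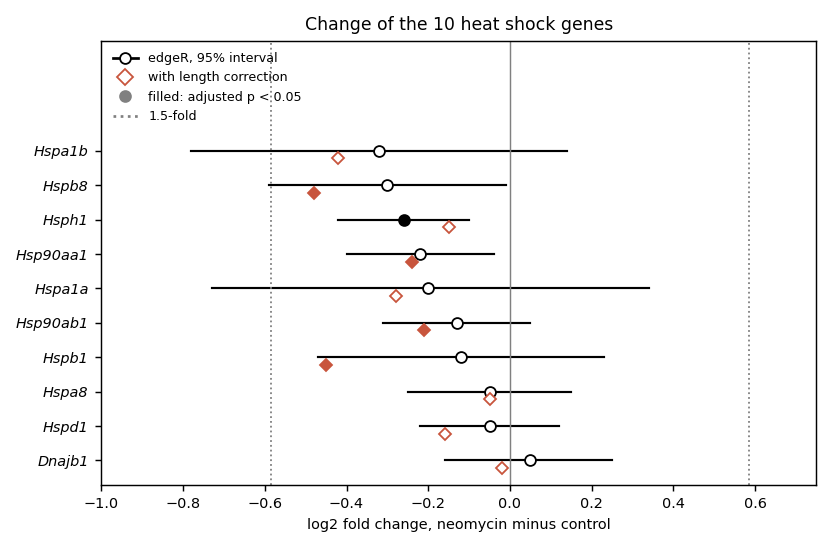
Log2 fold change of each gene, neomycin minus control, with circles and 95% intervals from edgeR and diamonds after the gene length correction. Filled symbols have an adjusted p-value under 0.05 (Hsph1 among the circles, and Hsp90aa1, Hsp90ab1, Hspb1 and Hspb8 among the diamonds), and dotted lines mark a 1.5-fold change.

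The intervals show what size of change the edgeR fit on all 6 libraries, with TMM and no length correction, leaves room for. The 95% interval of each gene on its own, without adjustment for several genes, ended below a 1.5-fold rise in 10 of 10 members. The highest upper bound was that of Hspa1a, a 1.265-fold rise. On the lower side the interval stayed above a 1.5-fold fall in 7 of 10. The exceptions were Hspa1a, Hspa1b and Hspb8, with the lowest bound for Hspa1b at a ratio of 0.583. Intervals of the alternative analyses are not given here, and some of their changes were larger. With the length correction the log2 fold change was -0.45 for Hspb1 and -0.48 for Hspb8. Without neomycin replicate 3 it was -0.56 for Hspa1b.

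Which members passed depended on whether gene length was corrected for. In the whole table the change went with exon length. Over 4 length classes of like size the median log2 fold change was 0.21 in the shortest (up to 2622 bases), 0.05 and -0.06 in the middle ones and -0.18 in the longest (6615 bases and more). With this trend removed, 23.5% of all genes passed, 13.1% lower, and 4 of 10 members did, all lower, namely Hspb8 at -0.48 (edgeR adjusted p = 0.00852), Hspb1 at -0.45 (edgeR adjusted p = 0.0180), Hsp90aa1 at -0.24 (edgeR adjusted p = 0.0309) and Hsp90ab1 at -0.21 (edgeR adjusted p = 0.0468). Hsph1, with 7266 exon bases the longest member, no longer did, at -0.15 (edgeR adjusted p = 0.197). No member passed both with and without the correction. Over all 19 alternative analyses the adjusted p of edgeR and the other tools ran from 0.00177 to 0.367 for Hspb8, from 0.00148 to 0.933 for Hspb1, from 0.0160 to 0.494 for Hsp90ab1 and from 0.00365 to 0.197 for Hsph1.

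Hspa8, on chromosome 9 of mm10 from 40800984 to 40810087, encodes HSC70, the HSP70 of unstressed cells, and in the union of its annotated exons it overlaps the small nucleolar RNA genes Snord14c, Snord14d and Snord14e on the same strand. It had 1743, 1814 and 2014 CPM in control replicates 1, 2 and 3 and 1715, 1804 and 1851 CPM in neomycin replicates 1, 2 and 3. The groups overlapped, with a log2 fold change of -0.05 (95% interval -0.25 to 0.15, edgeR adjusted p = 0.705), which was 0.02 without control replicate 3.

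Hspa1a and Hspa1b, single-exon genes on chromosome 17 from 34969190 to 34972156 and from 34956436 to 34959238, encode the inducible HSP70. Hspa1a had 8.97, 18.3 and 16.1 CPM in control and 8.70, 12.4 and 16.6 CPM after neomycin. Hspa1b had 12.9, 23.5 and 21.5 CPM in control and 12.3, 13.8 and 20.1 CPM after neomycin. In both genes the libraries of one group differed by more than the groups did, with replicate 1 lowest in control and in neomycin. The log2 fold change was -0.20 (standard error, SE, 0.25, edgeR adjusted p = 0.584) for Hspa1a and -0.32 (SE 0.21, edgeR adjusted p = 0.273) for Hspa1b. Single libraries weighed heavily here, since Hspa1a went to 0.01 without control replicate 2 or without neomycin replicate 1, and Hspa1b to -0.54 without control replicate 1 (edgeR adjusted p = 0.0323, with 0.0323 to 0.692 over its 18 alternatives). Because reads in their shared sequence can go to either gene, their counts were also summed, which gave 21.9, 41.8 and 37.5 CPM in control and 21.0, 26.2 and 36.7 CPM after neomycin. The sum had a log2 fold change of -0.27 (SE 0.22, edgeR adjusted p = 0.385). Hspa8 counts were 43.4 to 79.7 times this sum in control and 50.4 to 81.6 times after neomycin, so the constitutive gene far exceeded the inducible pair in every library.

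Hsph1, on chromosome 5 from 149614287 to 149636376, encodes HSP105, an HSP110 protein that releases nucleotide from HSP70 and acts on protein aggregates. Its values were 101, 99.7 and 110 CPM in control and 84.9, 82.4 and 92.1 CPM after neomycin. Every neomycin library lay below every control library. The log2 fold change was -0.26 (SE 0.07, edgeR adjusted p = 0.0195), a ratio of 0.833. The adjusted p of edgeR rose to 0.0527 without control replicate 3 (log2 fold change -0.21) and to 0.110 without neomycin replicate 2 (-0.23). The call was lost in both, where 33.0% and 15.6% of all genes passed. It was also lost with the length correction, as given above.

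Dnajb1, on chromosome 8 from 83608193 to 83612653, encodes HSP40, the J-domain partner that stimulates HSP70. It had 64.8, 71.6 and 82.0 CPM in control and 67.7, 80.4 and 77.5 CPM after neomycin. The groups overlapped, and its log2 fold change of 0.05 (SE 0.09, edgeR adjusted p = 0.739) was the only one above 0 among the 10. It turned to -0.02 with scaling by total counts, with the length correction and without control replicate 1, and to 0 on rounding without neomycin replicate 2.

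The cytosolic HSP90 genes both had lower values after neomycin without passing the test. Hsp90aa1, on chromosome 12 from 110690605 to 110702728, encodes the stress-inducible HSP90α. It had 533, 615 and 595 CPM in control and 481, 510 and 505 CPM after neomycin, with no overlap and a ratio of 0.859 (log2 fold change -0.22, SE 0.08, edgeR adjusted p = 0.0655). It passed in 7 of 19 alternative analyses, among them the one without control replicate 1 (-0.27), with adjusted p-values over all 19 from 0.00858 to 0.244. Hsp90ab1, on chromosome 17 from 45567775 to 45573271, encodes the constitutive HSP90β. It had 1537, 1474 and 1582 CPM in control and 1423, 1409 and 1372 CPM after neomycin, again with no overlap, and a log2 fold change of -0.13 (SE 0.08, edgeR adjusted p = 0.276). The ratio of Hsp90ab1 to Hsp90aa1 counts was 2.40 to 2.885 in control and 2.71 to 2.96 after neomycin.

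Among the small heat shock proteins, Hspb1, on chromosome 5 from 135887919 to 135889563, encodes HSP25, the mouse form of HSP27, which also binds actin filaments. It had 30.04, 40.8 and 41.7 CPM in control and 25.7, 35.01 and 42.7 CPM after neomycin. These ranges overlapped almost fully, with a log2 fold change of -0.12 (SE 0.16, edgeR adjusted p = 0.610). Without neomycin replicate 1 it was 0.05. Hspb8, on the same chromosome from 116408491 to 116422864, encodes HSP22, which works with the co-chaperone BAG3 to hand misfolded proteins to autophagy. It had 49.6, 74.7 and 76.5 CPM in control and 49.99, 55.5 and 57.8 CPM after neomycin. Control replicate 1 lay with the neomycin libraries and below the other controls. The log2 fold change was -0.30 (SE 0.13, edgeR adjusted p = 0.113), and it was -0.47 without control replicate 1 (edgeR adjusted p = 0.00177).

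Hspd1, on chromosome 1 from 55077835 to 55088243, encodes the mitochondrial chaperonin HSP60. Its values were 192, 224 and 228 CPM in control and 206, 207 and 208 CPM after neomycin. The neomycin libraries fell inside the control range and hardly differed among themselves, with a log2 fold change of -0.05 (SE 0.08, edgeR adjusted p = 0.668), which was 0.01 without control replicate 3. Hspe1 encodes HSP10, the lid of the HSP60 chamber, and its exons overlap those of Hspd1 on the other strand. It was at 129.5 ± 21.3 CPM in control and 162 ± 23.5 CPM after neomycin (SD, n = 3), with groups that overlapped and a log2 fold change of 0.32 (SE 0.12, edgeR adjusted p = 0.0664).

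**Figure D3:**
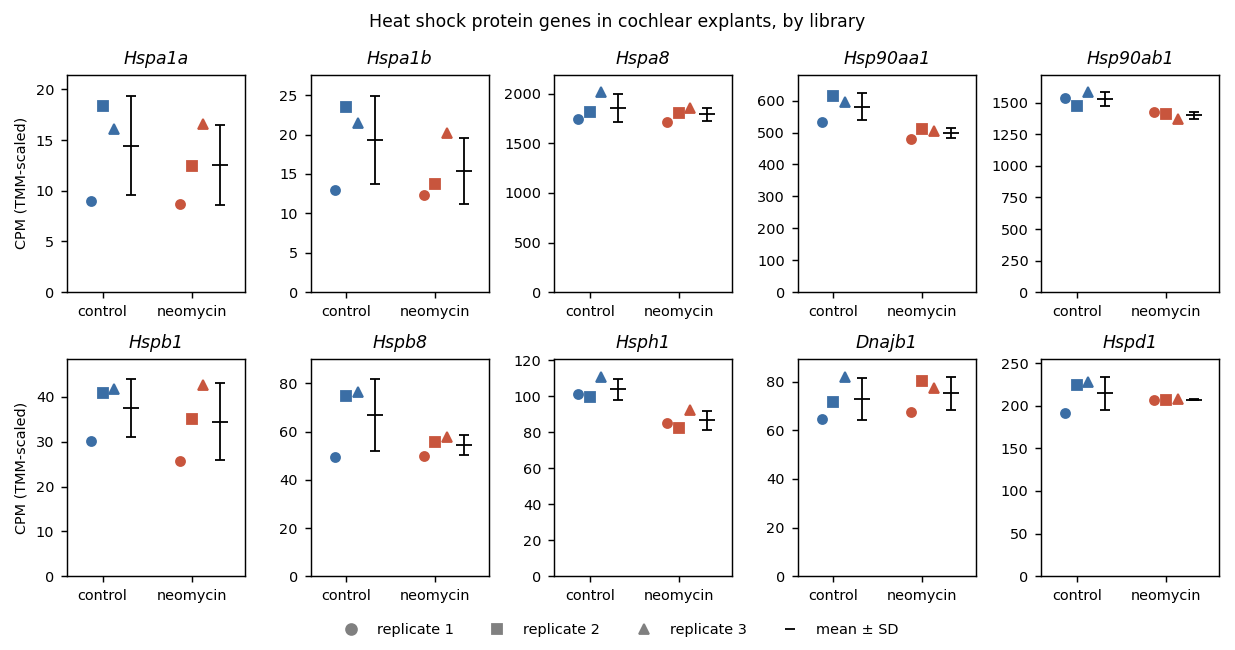
CPM (TMM-scaled) of each gene in the 3 control libraries in blue and the 3 neomycin libraries in red, with a marker shape for each replicate number and bars for the mean ± SD; each panel has its own axis from 0. Groups stand apart in Hsp90aa1, Hsp90ab1 and Hsph1, and replicate 1 is the lowest of its group in every panel but those of Hsp90ab1 and Hsph1.

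Some members varied together between libraries of one group. Pearson's r of log2 CPM was taken over the 6 libraries, which share their pools and depth across genes. Its highest values among all pairs of members were 0.95 between Hspa1a and Hspa1b, 0.96 between Hspa1a and Hspb1, and 0.93 between Hspb8 and Hspd1. After subtraction of each group's mean these were 0.97, 0.96 and 0.97. Other pairs were lower, with 0.04 between Hsph1 and Dnajb1 (0.48 after the subtraction). Between Hsp90aa1 and Hsph1 r was 0.79 (0.14 after the subtraction). Pairs of genes outside the members were not computed, so how usual such values are is not known. For Hsp90ab1 the r over the 6 libraries ran from -0.09 (with Dnajb1) to 0.84 (with Hsph1), and after the same subtraction from -0.47 (with Hspa1a) to 0.29 (with Hspa8). The pair of Hspa1a and Hspa1b share sequence, so their values are not separate measurements. Replicate 1 was the lowest of each group in every member but Hsp90ab1 and Hsph1. The share of all genes with this order was not computed. The order was not particular to the members. Summed levels of other lists had it too, among them the macrophage markers and the J-domain and chaperonin lists described below. The neuronal markers had replicate 1 highest in each group, at 612 CPM in control and 529 CPM after neomycin. A list of 14 immediate early genes, which respond to handling and culture stress, also had its lowest level in replicate 1. Its summed level was 506, 679 and 620 CPM in control and 459, 534 and 580 CPM after neomycin, with replicate 1 lowest in each group. Of the 14 genes, 6 were lower and 1 higher after neomycin by the same test. The part of this response in the levels of the heat shock genes was not tested.

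**Figure D4:**
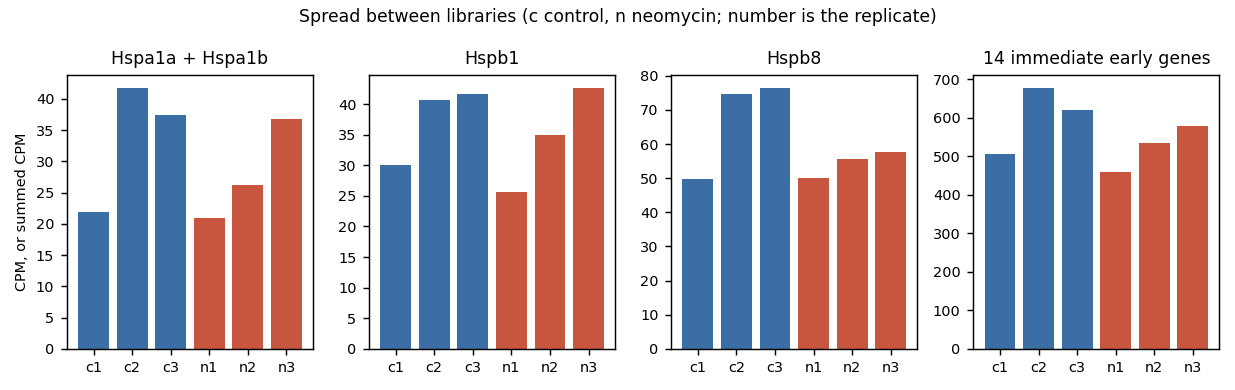
CPM of Hspb1 and Hspb8, and summed CPM of Hspa1a with Hspa1b and of 14 immediate early genes, in control libraries c1 to c3 and neomycin libraries n1 to n3. In each panel replicate 1 is the lowest of its group, and the sum of Hspa1a and Hspa1b runs from 21.0 to 41.8 CPM.

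The classically inducible members Hspa1a, Hspa1b, Hsph1, Dnajb1 and Hsp90aa1 had a mean standardised profile of -0.58, 0.76 and 1.01 in control and -1.06, -0.34 and 0.21 after neomycin. Of 14026 other genes with at least 1 CPM, the ones most like this profile over the 6 libraries were Cep135 (Pearson's r 0.996), Cdv3 (0.995) and Nus1 (0.991). None of the 3 passed the test between the groups, with log2 fold changes of -0.11, -0.09 and -0.09. They were picked as the highest of 14026 genes over only 6 libraries, so a high r is built into the choice. The r that such a search gives for an unrelated profile was not computed. Hspa1a and Hspa1b share sequence and both enter the profile.

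Of 100 related genes of the heat shock network, 97 were tested, and Hsf5, Cryaa and Hspb9 had too few counts. By the same test 19 were higher and 8 lower, and 2 of the lower ones, Hspa4l and Hspb3, also changed over 1.5-fold. That is 27 of 97, against 29.0% of all genes. The balance of directions turned with the scaling, since 12 were higher and 14 lower with total counts, and the median log2 fold change was 0.10 with TMM and 0.03 with total counts. Of the 27, 20 also passed with total counts, and Hspa5, Hspb11, Hspbp1 and Bag1 were among those that did not. Single genes were followed through the alternatives only where named by rule, which leaves out Dnajb11, Bag5 and Pfdn6 among others. The count of 27 fell to 8, 10, 11 and 12 without neomycin replicate 2, neomycin replicate 3, control replicate 2 and control replicate 1, while the share of all genes passing fell to 15.6%, 18.5%, 15.9% and 20.2% without the same libraries. With the length correction 22 related genes passed, 14 of them among the 27. Of the related genes named by rule, Hspa4l, Hspa12a, Ppid, Dnajc19, Dnaja4 and Pfdn5 passed in all 19 alternative analyses.

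The heat shock factors, which drive these genes, did not pass the test. Hsf1 had 38.7, 39.8 and 40.2 CPM in control and 36.4, 41.0 and 41.0 CPM after neomycin, and its log2 fold change rounded to 0.00 (SE 0.08, edgeR adjusted p = 0.974). Hsf2 had 23.4 ± 2.71 and 25.1 ± 1.21 CPM (SD, n = 3; log2 fold change 0.10, edgeR adjusted p = 0.462). With the length correction Hsf1 was at 0.11 (edgeR adjusted p = 0.336) and Hsf2 at 0.27 (edgeR adjusted p = 0.0957), and Hsf2 passed at 0.28 with that correction and the replicate number as a block (edgeR adjusted p = 0.0307). Hsf4 was under 1 CPM in every library. Hsbp1, whose product binds and restrains HSF1, rose from 179 ± 14.9 to 224 ± 8.44 CPM (SD, n = 3), by 0.32 on the log2 scale (edgeR adjusted p = 0.0101). It did not pass with the length correction (0.12, edgeR adjusted p = 0.157) or without neomycin replicate 2 (edgeR adjusted p = 0.0559).

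Among 11 further HSP70 family genes, 1 was higher and 2 were lower. Hspa4l, like Hsph1 a gene of the HSP110 class, had 44.0, 48.5 and 50.3 CPM in control and 29.9, 30.7 and 29.3 CPM after neomycin. Its log2 fold change was -0.67 (SE 0.08, edgeR adjusted p = 0.000114), and -0.46 with the length correction. Hspa12a, a divergent HSP70 relative, fell by 0.46 on the log2 scale (edgeR adjusted p = 0.0103). Hspa5 encodes BiP, the HSP70 of the endoplasmic reticulum (ER), and had 1328, 1505 and 1679 CPM in control and 1785, 1858 and 1856 CPM after neomycin, a log2 fold change of 0.29 (edgeR adjusted p = 0.0493). It was not called without control replicates 1 or 2 or without any one of the neomycin replicates (edgeR adjusted p from 0.0612 to 0.166).

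Of 14 HSP90 paralogs and co-chaperones, 3 were higher and 1, Unc45a, a myosin chaperone, was lower. Hsp90b1, the HSP90 of the ER, went from 1968 ± 174 to 2424 ± 42.7 CPM (SD, n = 3; log2 fold change 0.30, edgeR adjusted p = 0.0338), against -0.22 and -0.13 for its cytosolic relatives Hsp90aa1 and Hsp90ab1. It was not called without control replicates 1 or 2 or neomycin replicates 2 or 3 (edgeR adjusted p from 0.0965 to 0.127). Ppid, a cyclophilin that binds HSP90, rose by 0.39 on the log2 scale (edgeR adjusted p = 0.00514), and Aarsd1 by 0.31 (edgeR adjusted p = 0.0126), the latter not passing without control replicate 2 (0.0564) or neomycin replicate 3 (0.0687). Stip1, which hands clients from HSP70 to HSP90, did not pass at -0.15 (edgeR adjusted p = 0.127).

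In 6 further small heat shock genes tested, 2 were higher and 1 lower. Cryab, the lens and muscle chaperone αB-crystallin, had 384, 376 and 411 CPM in control and 468, 451 and 503 CPM after neomycin, without overlap, and rose by 0.28 on the log2 scale (edgeR adjusted p = 0.0209). With the length correction it stood at 0.03 (edgeR adjusted p = 0.825), and it did not pass without control replicates 1 or 2 or neomycin replicates 2 or 3 (edgeR adjusted p from 0.0517 to 0.101). Hspb11, which encodes a subunit of intraflagellar transport, rose by 0.43 (edgeR adjusted p = 0.0321), though its groups overlapped and the call was lost without the same libraries (edgeR adjusted p from 0.0992 to 0.140). It was also lost with the length correction (0.25, edgeR adjusted p = 0.120) and with total counts (0.36, edgeR adjusted p = 0.0538). The lower one, Hspb3, was under 1 CPM.

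Among 25 J-domain genes, 3 were higher and 3 lower, with Dnajb11, a partner of BiP in the ER, among the higher and Dnajc5 and Dnajc13 among the lower. Other ER genes of the related lists did not pass (edgeR adjusted p from 0.0564 to 0.716). Among them Hyou1 was at -0.06, Hspa13 at -0.14, Dnajc1 at -0.20 and Sec63 at -0.08. Dnajc3 was at 0.04, Dnajb9 at 0.10 and Dnajc10 at 0.12. Dnajc19 and Dnajc15, both of the mitochondrial import motor, rose by 0.57 (edgeR adjusted p = 0.00208) and 0.34 (edgeR adjusted p = 0.0155), while Dnaja4, a cytosolic partner of HSP70, fell by 0.55 (edgeR adjusted p = 0.000385). Dnajc15 did not pass without neomycin replicate 2 (0.0512) or 3 (0.0785). Of 12 HSP70 co-chaperones and exchange factors, 4 were higher, Bag5 among them, and 1, Bag2, was lower. Sil1, the exchange factor of BiP, rose by 0.31 (edgeR adjusted p = 0.0162), Hspbp1 by 0.29 (edgeR adjusted p = 0.0238) and Bag1 by 0.26 (edgeR adjusted p = 0.0440), and with the length correction Bag1 stood at -0.02 and Hspbp1 at 0.09. Without control replicates 1 or 2 or neomycin replicate 2 none of these 3 passed, nor did Hspbp1 and Bag1 without neomycin replicate 3 (edgeR adjusted p from 0.0520 to 0.162). Bag3, the partner of HSPB8 and itself a heat shock gene, had a log2 fold change of 0.12 (edgeR adjusted p = 0.253).

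The cytosolic chaperonin TRiC and its feeder prefoldin made up 14 of the 15 genes of the chaperonin list, with Hspe1. All 15 had a log2 fold change above 0, against 7914 of 15988 genes tested, with a median of 0.18. Cct2 and Cct7 stood at only 0.03 and 0.06, and with total counts the median over all genes was -0.07. The 15 directions were not recomputed with total counts or the length correction. Of the 15, 4 passed, all prefoldin subunits, Pfdn6 among them. Pfdn5 rose by 0.51 (edgeR adjusted p = 0.00462), Pfdn1 by 0.38 (edgeR adjusted p = 0.00378) and Vbp1 by 0.33 (edgeR adjusted p = 0.0135), and Pfdn1 was at 0.06 with the length correction (edgeR adjusted p = 0.5245). Vbp1 did not pass with the length correction (0.16, edgeR adjusted p = 0.1126) or without neomycin replicate 2 (0.0557) or 3 (0.0606). Of 10 other genes listed as targets of HSF1, Clpp, a mitochondrial protease, was the 1 that passed, at 0.33 (edgeR adjusted p = 0.0153), and it was at 0.04 with the length correction (edgeR adjusted p = 0.710) and did not pass without control replicates 1 or 2 or neomycin replicates 2 or 3 (0.0507 to 0.0696). Serpinh1, the collagen chaperone HSP47 and a classical heat shock gene, stood at 0.10 (edgeR adjusted p = 0.457).

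**Figure D5:**
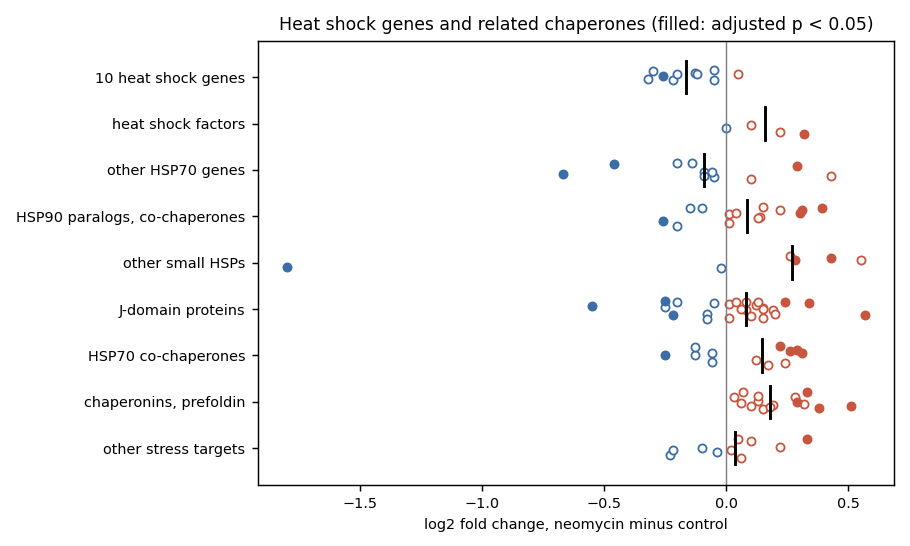
Log2 fold change, neomycin minus control, of each tested gene in the 10 heat shock genes and in 8 related lists, with a black bar at the median of each list and filled points for an adjusted p-value under 0.05. The heat shock genes lie mostly to the left of 0 with 1 filled point, and the chaperonin list lies to the right with 4.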

How the data were processed

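The authors called bases with Casava 1.8, trimmed with trimmomatic 0.23, aligned to mm10 with Hisat2 and counted with HTSeq on the UCSC annotation. The authors deposited counts, whole reads per gene symbol, without normalization. Strand setting and the handling of reads with several matches are not given in the sources used here. Samples were grouped by their labels, 3 control and 3 neomycin. Nothing says that the pools of a group came from separate litters, so p-values measure the spread between these pools. No libraries repeated each other, since the mean chi-square per gene between libraries of a group was 13.7 to 46.7.

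Counts were scaled with TMM, filtered with filterByExpr and tested with the quasi-likelihood test of edgeR 4.0.16 in R 4.3.3, with Benjamini-Hochberg adjustment over all genes tested. Calls used an adjusted p-value under 0.05, with a fold change over 1.5 where stated. Standard errors were derived from the F statistic and the fitted change. Alternatives used DESeq2 1.42.0 and limma 3.58.1. The length and GC corrections removed a lowess trend (span 0.3) per library on GENCODE M21 exon length or transcript GC content, and 99.2% of tested genes had a length. Positions and lengths are from GENCODE M21, which shares the mm10 build. The code was tested on simulated data. Genes named were all members, all heat shock factors, the 3 largest passing changes of at least 1 CPM per related list and 3 genes of like profile. Hspe1, Hspb3, Stip1, Bag3, Serpinh1, the ER genes that did not pass and the further genes that complete a count were added after their values were seen. Members and lists were chosen with earlier results of these data known. Figures were drawn with matplotlib 3.10.9.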

Additional observations from a re-analysis of the deposited data

How the results depend on the processing

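The counts of members and of related genes passing, and the changes of members, heat shock factors and the related genes named by rule, were recomputed under other scalings, filters, tests, corrections and thresholds, and with each library left out; levels, correlations and marker lists were not. The number of members with an adjusted p-value under 0.05 was 1 (29.0% of all genes). It became 2 with total counts (28.5%) or with the DESeq2 Wald test (30.3%), 3 with the replicate block (37.6%), 4 with the length correction (23.5%), 5 with the length correction and the block (29.3%), 3 with the GC correction and the block (38.8%), 0 at an adjusted p under 0.01 (13.8%) and 2 at 0.1 (37.9%). Leaving out single libraries gave 0 to 4 (15.6% to 33.0%), with 0 without control replicate 3 or neomycin replicate 2 and 4 without control replicate 1. The number past a fold change of 1.5 stayed at 0 in every alternative analysis, and 1 passed a fold change of 1.2 (26.0% of all genes). Related genes passing numbered 27, 42 with the block, 44 with the GC correction and the block, and 8 to 37 with single libraries left out.

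Same-numbered samples deviated together weakly, with correlations of 0.17, 0.03 and 0.09, and 5 of 6 samples correlated best with their own number. The labels give only the number, so whether the samples were paired is not known. The replicate block is therefore given here as an alternative. It raised the count over all genes from 4629 to 6014.

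Of 605 values of single genes under alternatives, 499 kept their direction and side of the threshold, 61 lost the call, 19 gained it and 26 changed sign. The sign changes were all small. With the length correction Dnajb1 was at -0.02, Hsf1 at 0.11, Hsf4 at -0.02 and Bag1 at -0.02, and with the block added -0.02, 0.11, -0.05 and -0.02. Dnajb1 was at -0.02 with total counts. Hsf1 was at 0.00 with DESeq2 size factors and with the DESeq2 Wald test, at 0.02 with upper quartile scaling and at 0.01 with the GC correction with or without the block. With single libraries left out, Hspa1a ranged from -0.45 to 0.01, Hspa8 from -0.09 to 0.02, Hspb1 from -0.30 to 0.05, Dnajb1 from -0.02 to 0.15, Hspd1 from -0.12 to 0.01, Hsf1 from -0.03 to 0.05 and Hsf4 from -0.02 to 0.64. The cause of these shifts was not tested. Depth was not limiting for the members, whose lowest count was 462, and the spread between pools set the precision.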
